A study of Homo sapiens with 9 samples.

Results

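The resting transcriptome of the cells was described from 3 untreated libraries, control 1, control 2 and control 3, out of 9 RNA-seq libraries in the series. They were chosen by the treatment label alone, which reads NULL for them. The other 6 libraries, 3 from cells given SKF-96365 and 3 from cells given 2-APB, which the series presents as an inhibitor and an agonist of the cation channel TRPV2, enter no test here. All 9 libraries share the cell line label HepG2, a human hepatocellular line, and the tissue label liver. The labels give no passage, culture time, vehicle, batch or day for the controls. They also do not say whether the 3 controls are separate cultures, so the spread given below is the spread between these libraries and may be technical. With 1 group there is nothing to test, and every value is a description.

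A liver-derived line is usually recognised by its plasma proteins, such as albumin and the apolipoproteins, and by nuclear factors such as HNF4A that drive their genes. Simple epithelial keratins mark an epithelial origin, while vimentin, N-cadherin and secreted matrix mark the mesenchymal state that many tumour lines take up in culture. Receptors and ion channels set which signals such a cell can receive, and cell-cycle, early-response and inflammatory genes report whether the cell is dividing or responding.

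The controls held 16053348, 16846086 and 15999490 reads, with 27524, 27503 and 28094 genes above 0. Values are normalized counts (reads divided by 1 size factor per library), in which 1 read was worth 1.05, 1.01 and 1.04 in control 1, 2 and 3. A gene with 0 reads may still have stood at up to 3 reads, or 3.16, 3.04 and 3.13 normalized counts, a limit that covers counting error only. Control 3 stood apart from the others. Across the 12317 genes with a mean of at least 50, log2 of the value plus 1 gave r = 0.980 between control 1 and control 2, against 0.945 and 0.940 between control 3 and these. Control 3 was closer to 2 treated libraries, SKF-96365 2 and SKF-96365 3, with a mean r of 0.989, than to the other controls, with a mean r of 0.943. Control 1 was likewise closest to a treated library, 2-APB 3 (r = 0.989). Control 2 was closest to control 1 (r = 0.980), and its closest treated library was 2-APB 2 (r = 0.975). These are correlations across genes, which are not independent replicates, in libraries scaled together. Whether each library carries the right label cannot be checked from the labels, and what sets control 3 apart was not tested. Values in control 1 and control 2 alone are given where control 3 decides a count or a median.

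Of 61093 listed genes, 15062 (24.7%) stood at 10 or more normalized counts in each of the 3 controls, which is called expressed below. A further 42799 stood under 10 in each, and 3232 crossed this level between libraries. Among protein-coding genes 12223 of 19861 (61.5%) were expressed. Long intergenic non-coding genes reached 497 of 7507, antisense genes 690 of 5542 and micro-RNA loci 11 of 1877. Whether strand was used in counting is not given in the sources used here, so reads of a gene and of its antisense partner cannot be told apart. Protein-coding genes took 95.1%, 95.0% and 92.9% of the reads in control 1, 2 and 3.

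The reads were spread unevenly over the genes. The 10 genes with most reads took 7.39%, 7.81% and 9.84% of the libraries, the top 100 took 21.8%, 22.1% and 24.3%, and the top 1000 took 51.8%, 52.2% and 53.7%. Of the 30 genes with the highest mean count, 11 were mitochondrially encoded. MT-CO1, a subunit of the terminal respiratory oxidase, led with 280050, 272825 and 368190 normalized counts in control 1, 2 and 3. MALAT1, a long non-coding RNA kept in the nucleus, followed the mitochondrial ribosomal RNA MT-RNR2 with 134950, 162751 and 290588, and NEAT1, the scaffold RNA of paraspeckles, had 32599, 25983 and 96832. Both nuclear RNAs were highest in control 3. The 37 mitochondrially encoded genes together held 7.13%, 6.90% and 8.01% of reads, and 77 cytosolic ribosomal protein genes held 3.40%, 3.00% and 3.29%.

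Levels of different genes can be compared only per length. Reads were therefore also divided by exon length and scaled to the same total in each library, as TPM, here computed from recovered reads and GENCODE 29 lengths. On that scale the highest nuclear gene was FTL, the light chain of the iron store ferritin, at 7871, 7199 and 9860 TPM in control 1, 2 and 3. TMSB10, an actin-binding thymosin, stood at 7917, 7185 and 8670 TPM, within the spread of FTL. MALAT1 came next at 3198, 3921 and 7003 TPM, and the elongation factor EEF1A1 at 3774, 4333 and 4441 TPM. Keratins ranked with the actins at this height. KRT18 had 2844 ± 514 TPM and KRT8, its partner in simple epithelial filaments, 2513 ± 336 TPM, against 3514 ± 455 for ACTG1 and 2835 ± 299 for ACTB (SD, n = 3). SRGN, the core protein of the granule proteoglycan serglycin, best known from blood cells, reached 2359 ± 278 TPM and was also among the highest 25. CAVIN1 (1842 ± 62.7 TPM), which coats caveolae, and CAV1 (1361 ± 149 TPM), their membrane scaffold, were both in the same set. A ranking by reads and one per length shared 19 of their 30 genes.

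**Figure D1:**
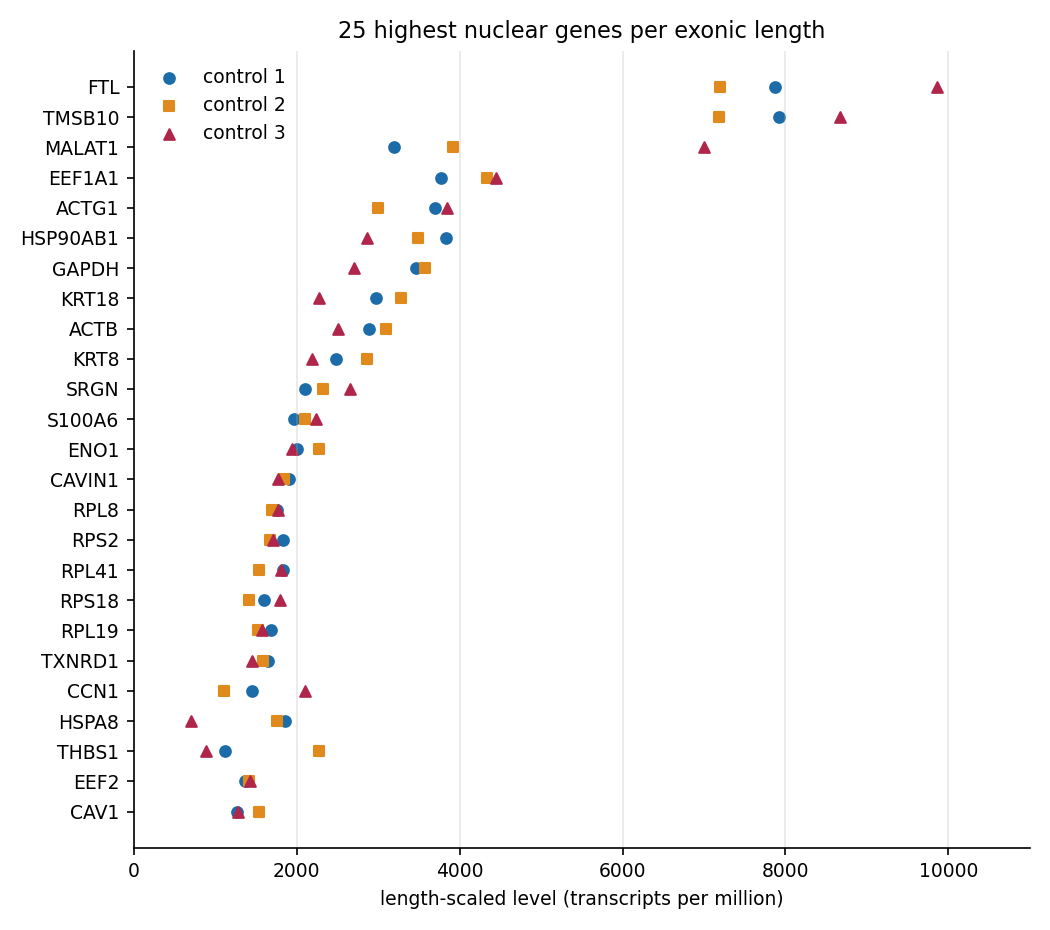
Length-scaled level in TPM (x axis, linear) of the 25 nuclear genes with the highest mean per exonic length, leaving out the mitochondrial pseudogene MTATP6P1, with 1 point per untreated library. FTL and TMSB10 stand above all others in each library, MALAT1 reaches 7003 TPM in control 3, and HSPA8 and THBS1 show the widest gaps between libraries among the rest.

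Several of these abundant genes differed widely between controls. THBS1, a secreted adhesive glycoprotein, had 1118, 2279 and 891 TPM, and was highest in control 2. HSPA8, the constitutive cytosolic chaperone, had 1858, 1762 and 704 TPM, and TUBB, a beta-tubulin, had 1629, 1632 and 557 TPM. Both were lowest in control 3. The steadiest abundant genes, out of 3784 with a mean of at least 1000 normalized counts, were CDS2, a phospholipid enzyme, with 1642, 1644 and 1638, and GPBP1L1 with 2239, 2233 and 2229. The widest relative spread was that of GDF15, a stress-induced secreted factor, with 404, 298 and 4830, a coefficient of variation of 140%. ALPG, a germ cell alkaline phosphatase with near-identical paralogs that could share reads, followed with 1619, 701 and 6957.

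The hepatocyte genes did not bear out the label. Of 26 listed plasma proteins of hepatocytes, 24 stood under 10 normalized counts in every control and 6 had no read in any. ALB, albumin, had 0, 5.07 and 9.39 normalized counts in control 1, 2 and 3, and AFP, its fetal counterpart and a standard marker of this line, had 3.16, 4.06 and 5.22. APOA1, of high-density lipoprotein, had 0, 1.01 and 1.04, while TTR, the thyroxine carrier, and HP, haptoglobin, had none. All 5 of these defining markers stayed under 10, although ALB and AFP in control 2 and control 3 lay above the limit that a count of 0 allows. The exceptions were SERPINA1, alpha-1-antitrypsin, with 207, 523 and 378, and VTN, vitronectin, with 121, 96.4 and 194. In bulk RNA, fewer cells of a type and less RNA per cell cannot be told apart, so a small share of cells with these transcripts would look the same as a low level in all. The cells are accordingly called untreated cells below.

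Liver enzymes and transporters were mostly absent too, with 8 of 30 expressed (26.7%, beside 61.5% of protein-coding genes) and 20 under 10 in each control. The cytochrome genes CYP3A4 and CYP7A1 had at most 4.17 normalized counts in any control. OTC and PCK1, enzymes of urea and glucose metabolism, had no read. GLUL, glutamine synthetase, was the highest of the list with 418, 508 and 402, followed by CPS1, which starts the urea cycle, with 188, 160 and 306, and ASS1, a later step, with 183, 153 and 171. ASGR1, a subunit of the receptor that clears asialoglycoproteins, had 55.8, 47.7 and 48, whereas its partner ASGR2 had at most 1.05. The list was unchanged without control 3, except that CYP27A1 and HPD then stood under 10 throughout.

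Liver transcription factors split into factors present and factors missing. HNF4A, the central hepatocyte factor, had 2.10, 1.01 and 0 normalized counts, and FOXA2, NR1H4, NR1I2 and PROX1 stood under 10 as well. Of 22 listed factors 10 were expressed (45.5%), beside 61.5% of protein-coding genes. NR2F2, an orphan nuclear receptor found in many mesenchymal cells, led with 3116, 1799 and 2372. GATA4, an endoderm and heart factor, had 367, 229 and 365. Among fetal liver genes the insulin-like growth factor mRNA-binding proteins IGF2BP1 (3830, 3278 and 2823) and IGF2BP3 (1597, 2131 and 1577) were high. The capsid-derived gene PEG10 (1132, 1148 and 1178) was steady. GPC3, DLK1, IGF2 and SPINK1, all classical for this tumour type, stood under 10.

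Epithelial and mesenchymal genes were present side by side. All 3 controls held high simple keratins, with 7 of 8 expressed. KRT8 had 81596, 92630 and 70934 normalized counts, KRT18 had 45706, 49656 and 34472, and KRT19, of bile duct and other ducts, had 6620, 7074 and 10029. Of 15 keratins of stratified epithelium, KRT15 (476, 474 and 317) and KRT10 (178, 142 and 99.1) were expressed, while KRT5, KRT14 and KRT6A had at most 1.05. VIM, vimentin, had 35036, 27724 and 26459 and was the highest of 22 mesenchymal genes. Of these 22, 16 were expressed (72.7%), beside 61.5% of protein-coding genes. Without control 3 the same number of these 22 was expressed, and 6 in place of 3 stood under 10. Per length KRT8 exceeded VIM, with 2513 ± 336 against 1219 ± 177 TPM (SD, n = 3), and no library of either overlapped the other.

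The cadherins leaned to the mesenchymal side. CDH2, N-cadherin, had 1394, 1785 and 1734 normalized counts. CDH1, the E-cadherin of epithelial adherens junctions, had 17.9, 44.6 and 101, lowest in control 1 and highest in control 3, and far below CDH2 per length (1.88 ± 1.47 against 70.1 ± 9.71 TPM; SD, n = 3). The epithelial splicing factor ESRP1, the junction regulators GRHL2 and OVOL1, and the claudin CLDN3 all stood under 10. Of 28 junction genes 16 were expressed (57.1%), beside 61.5% of protein-coding genes. The highest were the tight junction scaffold TJP1 (4914, 4899 and 3652), the desmosomal cadherin DSG2 (1717, 2080 and 2722) and CLDN1 (842, 701 and 1026). EPCAM, a surface antigen of simple epithelia, had 3.16, 4.06 and 19.8, and was above 10 in control 3 alone.

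Factors of the mesenchymal transition were partly present. ZEB1, which represses CDH1, had 1086, 956 and 1094 normalized counts, and ZEB2 had 809, 892 and 947, each steady across the controls. SNAI2 had 93.7, 14.2 and 111 and was lowest in control 2, while SNAI1 crossed 10 in control 3 alone (7.37, 4.06 and 21.9). The fibroblast factor PRRX1 and cadherin CDH11 had no read. FN1, fibronectin, had 2522, 8733 and 7935, lowest in control 1. AXL, a receptor kinase often high in such cells, had 11050, 11842 and 13231.

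Of 32 matrix genes 27 were at 10 or more in each control (84.4%), beside 61.5% of protein-coding genes. SPARC, a matrix-binding glycoprotein, had 26776, 23369 and 40365 normalized counts. LAMC1, the gamma chain of most laminins, had 17563, 18216 and 29231. LAMB1 had 8336, 10816 and 14603 and LOXL2, a collagen cross-linking oxidase, 8681, 8945 and 17686. These genes were highest in control 3, and HSPG2, the basement membrane proteoglycan perlecan, reached 18398 there against 6253 and 8760. Basement membrane collagen COL4A2 had 71.4 ± 15.6 TPM, against 2.92 ± 1.67 TPM for COL1A1 of interstitial collagen (SD, n = 3). COL1A2, the partner chain of COL1A1, had 5.26, 17.2 and 13.6 normalized counts, and POSTN and DCN, of connective tissue, stood under 10.

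**Figure D2:**
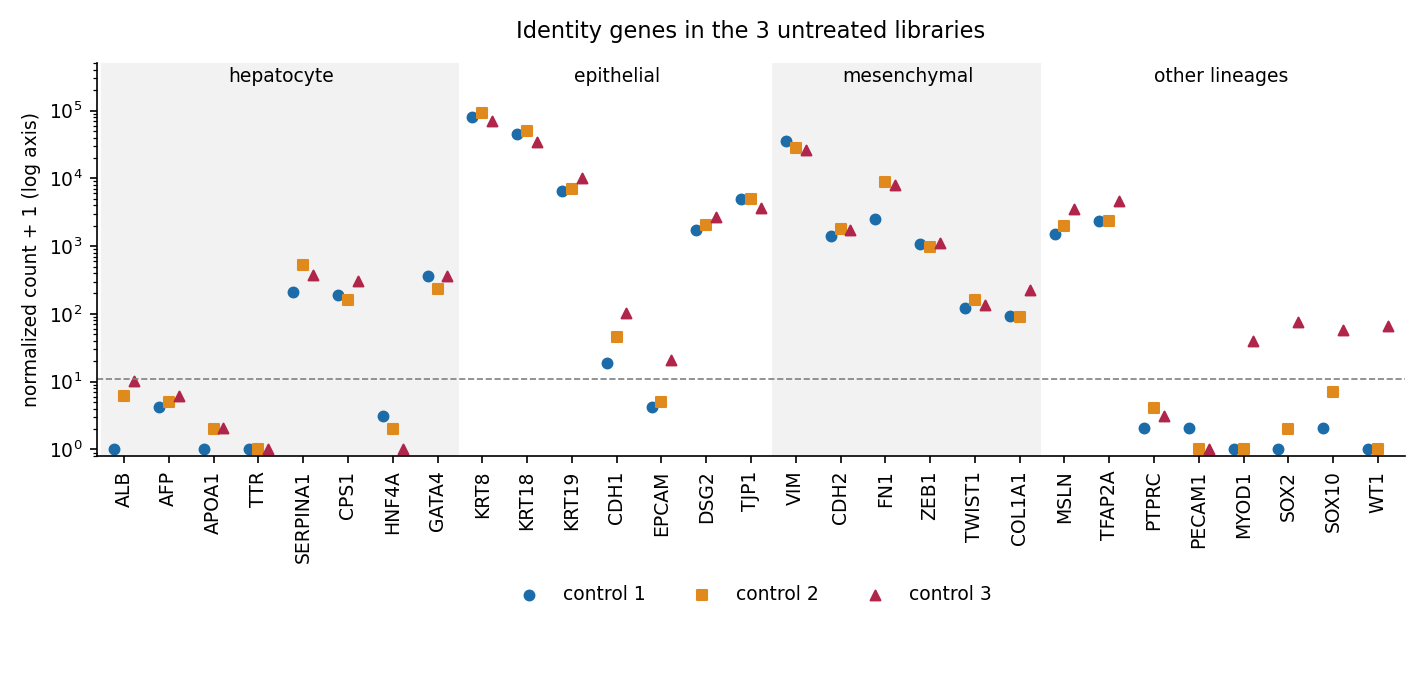
Normalized count plus 1 (y axis, log scale) of identity genes in the 3 untreated libraries, 1 point each, grouped by the cell type they mark. The dashed line is at a normalized count of 10. ALB, AFP, APOA1, TTR and HNF4A stand below it in each library, KRT8, KRT18 and VIM stand at 26459 or more, and MYOD1, SOX2, SOX10 and WT1 stand above it in control 3 alone.

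The HOX clusters, whose genes record position along the body axis, were used unequally. Of 10 HOXB genes 9 were expressed, with HOXB7 (722, 796 and 449 normalized counts), HOXB6 (452, 548 and 407) and HOXB3 (300, 398 and 398) highest. HOXB1 at the other end of the cluster had no read. Of 9 HOXC genes 6 were expressed, led by HOXC10 with 367, 485 and 340 and HOXC13 with 286, 294 and 279. The HOXA cluster had 4 of 11, none above 74.1 in any control. No HOXD gene of 9 was expressed in all 3 controls, and HOXD13, the highest, had 18.9, 13.2 and 7.30. Without control 3, 1 HOXD gene was expressed and the counts of the other clusters did not change.

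Markers of other tissues were expressed in part. Of the listed genes these were 6 of 16 for neurons, 4 of 11 for melanocytes and neural crest, 2 of 11 for skeletal muscle, 1 of 11 for endothelium and 2 of 14 for blood. They were 1 of 7 for adipocytes, 5 of 10 for breast, prostate and urothelium, 4 of 11 for kidney and mesothelium and 0 of 11 for gut and pancreas, beside 2 of 26 for the plasma proteins of hepatocytes. Without control 3 these 9 counts did not change, while the genes under 10 in each control were 8 in place of 4 for endothelium and 5 in place of 3 for breast, prostate and urothelium. Among the members at or near 0, the blood markers CD3E, PTPRC, MS4A1 and SPI1, the endothelial PECAM1 and CLDN5, the melanocyte TYR, the neuronal STMN2 and ELAVL4, and the adipocyte ADIPOQ had at most 3.04 normalized counts in any control. MSLN, mesothelin, a surface protein of mesothelium and several carcinomas, was high at 1521, 1976 and 3532. TFAP2A, a factor of neural crest, trophoblast and several epithelia, had 2313, 2346 and 4712, and PRAME, a cancer-testis antigen, had 1764, 1575 and 1496. TNNT1, a slow skeletal muscle troponin, had 1093, 1082 and 1176, while MYOG and ACTA1 of the same list had at most 3.04. EGFL7, listed as endothelial, had 494, 471 and 827. PAPPA, a placental protease, had 569, 364 and 1483 and was highest in control 3. POU5F1, the pluripotency factor, has expressed pseudogenes that could share reads, and had 234, 236 and 81.4, while NANOG had none. The identity lists together had 155 of 397 genes expressed (39.0%), against 61.5% of all protein-coding genes.

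Among receptor tyrosine kinases, which carry growth factor signals, 33 of 58 were expressed (56.9%), beside 61.5% of protein-coding genes. AXL was the highest per length at 495 ± 49.1 TPM, then the ephrin receptor EPHA2 at 349 ± 18.7 TPM, MET, the hepatocyte growth factor receptor, at 243 ± 55.2 TPM, and EGFR at 119 ± 11.5 TPM (SD, n = 3). MET had 6298, 9848 and 8039 normalized counts, highest in control 2, and EGFR had 6717, 6669 and 7808. ERBB3 (2047, 2478 and 3556) and ERBB2 (1674, 1952 and 3540) were both highest in control 3, and KIT, the stem cell factor receptor, was lowest there with 1905, 1372 and 988. Ligands of EGFR were present as well. EPGN, epigen, had 2108, 1875 and 2206, EREG, epiregulin, had 1936, 2172 and 2849, and HBEGF had 551, 419 and 303, while EGF itself and BTC stood under 10.

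A further 20 receptor tyrosine kinases crossed 10 between controls, and for 16 of these control 3 was the only library at 10 or more. With a stricter rule, at least 20 in control 3 and under 10 in both others, 14 of 58 were in control 3 alone, where 1.52% of the 15544 genes that reached 20 in some control met this rule. CSF1R, the macrophage growth factor receptor, had 4.21, 5.07 and 151 normalized counts. LTK had 3.16, 0 and 144, and FGFR2, an epithelial receptor for fibroblast growth factors, had 2.10, 3.04 and 105. ROS1 had 2.10, 7.10 and 270. Outside this rule, since control 2 was above 10, ALK had 8.42, 14.2 and 1929 and RET had 8.42, 15.2 and 938. ROS1, ALK and RET are kinases known from fusions in cancer, and each was at 15.2 or less in control 1 and control 2. Leaving out control 3, the list had 33 expressed kinases as before and 21 under 10 in place of 5.

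Of 48 nuclear receptors 28 (58.3%) were expressed, beside 61.5% of protein-coding genes. NR3C1, the glucocorticoid receptor, had 2120, 2457 and 2720 normalized counts, and RARG, a retinoic acid receptor, had 1476, 1431 and 1587. The bile acid receptor NR1H4 and the xenobiotic receptor NR1I2 had at most 1.05. PGR, the progesterone receptor, had 0, 0 and 35.5. TGF-beta family receptors were expressed in 11 of 14 cases (78.6%). Among them were TGFBR1 (1325, 1625 and 1284), TGFBR2 (1494, 1661 and 1362), BMPR2 (2042, 2354 and 2389) and the co-receptor ENG (2941, 2337 and 2529). Of 22 Wnt, Notch and Hedgehog receptors 14 were expressed (63.6%), and without control 3 15 were, with 6 in place of 2 under 10. NOTCH2 had 7628, 9944 and 9089 and FZD2 had 2423, 2813 and 2441. NOTCH3 (6.31, 8.11 and 255) and NOTCH4 (7.37, 5.07 and 254) were in control 3 alone.

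Cytokine receptors were expressed in 24 of 33 cases (72.7%), beside 61.5% of protein-coding genes. IL6ST, the shared signalling chain of the IL6 family, had 6381, 7224 and 7580 normalized counts, and OSMR, which pairs with it to bind oncostatin M, had 3284, 3465 and 4705. IL6 itself was expressed at 635, 604 and 656 and its specific receptor IL6R at 311, 399 and 585. IL13RA1, a receptor chain for IL13 and IL4, had 1241, 1275 and 1815. Chains of the type I and type II interferon receptors were expressed, with IFNAR1 at 1771, 1891 and 1137. Death receptors were present: TNFRSF1A had 4077, 3899 and 4257, TNFRSF10B, a receptor of the ligand TRAIL, had 3566, 2963 and 3890, and TNFRSF12A, the receptor of TWEAK, had 2992, 2519 and 1467. Of 10 Toll-like receptors, which sense microbial molecules, TLR3 (24.2, 66.9 and 16.7) and TLR6 (70.5, 68.0 and 48.0) were expressed, and TLR2, TLR8, TLR9 and TLR10 had no read.

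G protein-coupled receptors were expressed in 32 of 50 cases (64%), also without control 3, when 16 in place of 13 stood under 10. GPRC5A, an orphan receptor of lung and other epithelia, had 29154, 21101 and 44891 normalized counts and was highest in control 3. OXTR, the oxytocin receptor, had 8806, 8086 and 11191, which is 439 ± 77.9 TPM (SD, n = 3). The thrombin receptor F2R (1478, 1186 and 2698), the lysophosphatidic acid receptor LPAR1 (1815, 2438 and 1719) and the sphingosine phosphate receptor S1PR1 (1003, 974 and 983) were also present. Hormone receptors of the liver were not: GCGR, the glucagon receptor, had at most 1.04, and AVPR1A, of vasopressin, had no read. GLP1R had no read either. CD44, the hyaluronan receptor, had 24936, 18788 and 24113, and TFRC, the transferrin receptor, had 6684, 7740 and 8329. The 9 receptor lists together had 167 of 271 genes expressed (61.6%), beside 61.5% of protein-coding genes.

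**Figure D3:**
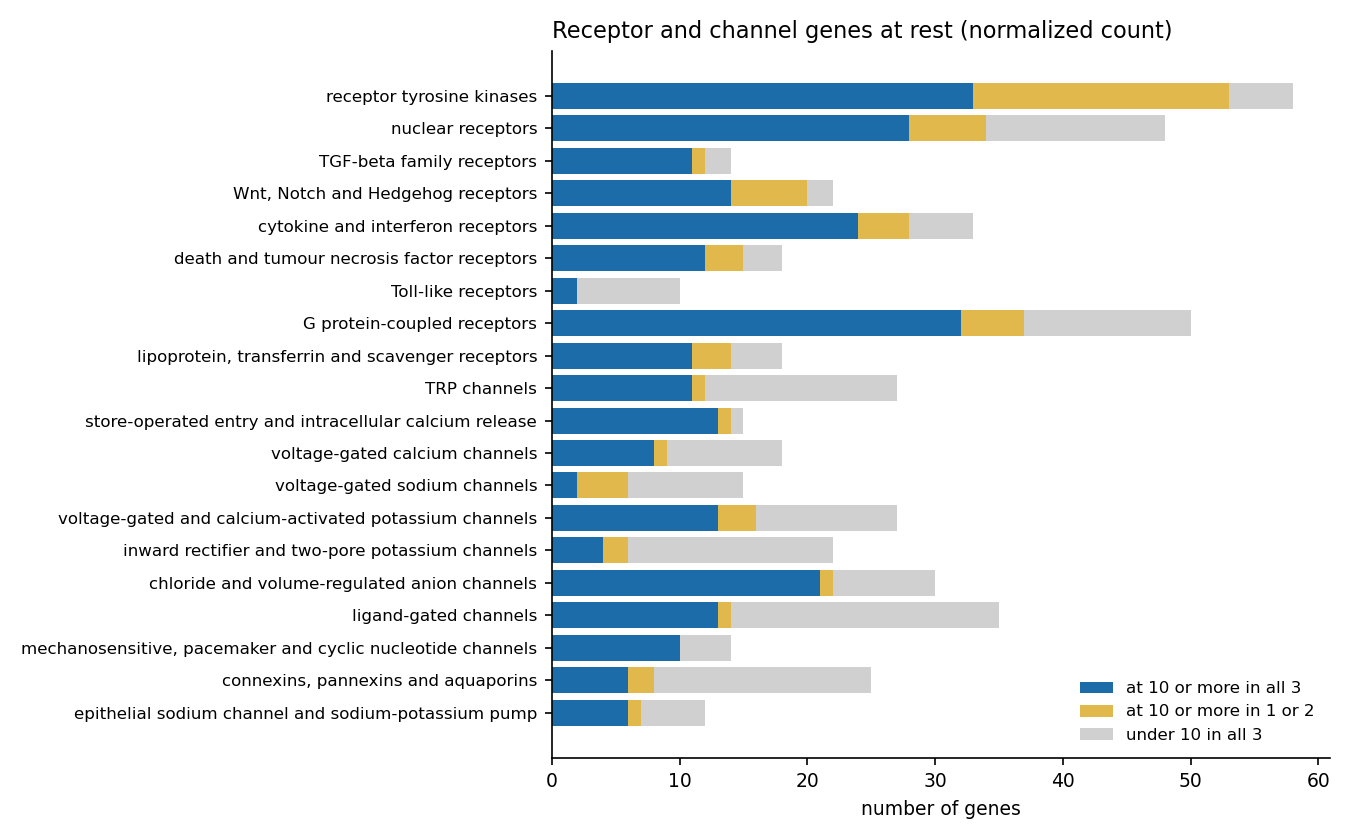
Number of genes (x axis) in each of 9 receptor and 11 channel lists, split into those at 10 or more normalized counts in all 3 controls, in 1 or 2 of them, and in none. The receptor tyrosine kinases hold 20 genes in the middle class, the most of any list, and the Toll-like, inward rectifier and ligand-gated lists are mostly under 10.

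TRPV2, the calcium-permeable channel named by the series, was expressed at a modest level. It had 112, 51.7 and 191 normalized counts in control 1, 2 and 3, or 6.84, 3.23 and 11.9 TPM, lowest in control 2 and highest in control 3. With 7.33 ± 4.36 TPM (SD, n = 3) it was the seventh of 11 expressed TRP channels. TRPM7, a channel fused to a kinase, was highest at 43.8 ± 6.48 TPM, with 2346, 2358 and 2985 normalized counts. PKD2, the polycystin channel, had 39.3 ± 11.3 TPM, which overlapped TRPM7. TRPC1 (23.7 ± 5.89 TPM), the endolysosomal MCOLN2 (20.6 ± 4.64 TPM), TRPM4 (16.4 ± 7.24 TPM) and MCOLN1 (13.5 ± 1.49 TPM) followed, each within the spread of its neighbour. TRPV2, MCOLN3 (5.36 ± 2.08 TPM) and the heat and capsaicin channel TRPV1 (5.26 ± 0.201 TPM) did not differ beyond their spread, and TRPC4 (2.67 ± 1.76 TPM) and TRPM2 (1.59 ± 0.141 TPM) were lowest. TRPV1 was far steadier than TRPV2, with 133, 139 and 140 normalized counts, although 30.04% of its exonic bases are shared with another gene. The 15 TRP genes under 10, TRPV4, TRPM8 and TRPC6 among them, had at most 5.26 in any control, and TRPV5, TRPV6 and TRPA1 had no read.

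Of 15 genes of store-operated calcium entry, which refills internal stores, and of calcium release from those stores, 13 were expressed (86.7%). Among protein-coding genes the share was 61.5%. The store sensor STIM1 had 1091, 1437 and 1366 normalized counts, and the plasma membrane pores ORAI1 and ORAI2 had 607, 551 and 449 and 1236, 1016 and 1158. ITPR3, the release channel gated by inositol trisphosphate, was the highest of its family with 5353, 6002 and 6805, or 130 ± 16.6 TPM, against 12.9 ± 0.981 TPM for ITPR2 and 1.83 ± 0.0579 TPM for ITPR1 (SD, n = 3). The muscle release channel RYR1 stood under 10. Voltage-gated calcium channels were expressed in 8 of 18 cases (44.4%), mostly as accessory subunits such as CACNB3 (782, 684 and 938) and CACNA2D1 (328, 361 and 398). Of the pore subunits, the T-type CACNA1H led with 168, 82.2 and 280, and the cardiac CACNA1C had at most 3.13.

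Other excitable-cell channels were sparse. Among sodium channels SCN8A (788, 924 and 842) and the leak channel NALCN (141, 104 and 233) were expressed, and no other gene of the 15 listed was at 10 or more in all 3 controls. SCN9A had 42.1, 3.04 and 42.8 and was under 10 in control 2 alone. By count, calcium-activated channels were the highest of the 27 listed potassium channels, with KCNMA1 at 2127, 1822 and 2460 and KCNN4 at 1557, 1269 and 2303. Per length KCNN4 led at 106 ± 33.6 TPM, while KCNMA1, at 12.7 ± 1.91 TPM, overlapped KCNS3 at 11.6 ± 2.71 TPM (SD, n = 3). Inward rectifier and K2P potassium channels had 4 of 22 expressed (18.2%), the highest by count KCNK6 with 62.1, 94.3 and 137. Of 30 chloride and volume channels 21 were expressed (70%), beside 61.5% of protein-coding genes. The intracellular channel proteins CLIC4 (12050, 13979 and 12350) and CLIC1 (9594, 9146 and 7348) led, with the scramblase ANO6 (4622, 5154 and 5963) and the volume channel subunit LRRC8D (1224, 1380 and 1256), while CFTR had no read.

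PIEZO1, a stretch-activated channel, had 3820, 4109 and 3684 normalized counts, which is 72.5 ± 4.28 TPM (SD, n = 3), so it stood above each TRP channel per length. Gap junction genes were narrow: GJC1, a connexin, had 5485, 5332 and 8257, and GJB1, the main connexin of hepatocytes, had at most 1.04. GJA1 had 9.47, 22.3 and 179 and was highest in control 3, and GJA5 had 31.6, 102 and 29.2 and was highest in control 2. The liver aquaporins AQP8 and AQP9 had at most 1.05. Ligand-gated channels were expressed in 13 of 35 cases (37.1%), among them CHRNB1 (475, 497 and 378), ASIC1 (502, 301 and 643) and GRIN2D (306, 406 and 436). GRIN2A, another glutamate receptor subunit, had 1.05, 1.01 and 133. All channel lists together had 107 of 240 genes expressed (44.6%), beside 61.5% of protein-coding genes.

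The spread among the controls was compared with that of read counting. Over 12317 genes with a mean of at least 50 normalized counts, the median coefficient of variation was 17.01%, against 4.40% from counting alone. The highest control was at least 2-fold above the lowest, on the value plus 1, for 1575 genes (12.8%), and at least 4-fold for 221. Between control 1 and control 2 alone 269 of these 12317 genes differed 2-fold, against 1027 between control 1 and 3 and 1110 between control 2 and 3. A gene is said below to vary in a library if that library stood at least 2-fold above, or below, both others. Control 3 was higher for 415 genes (3.37%) and lower for 193 (1.57%). Control 2 was higher for 24 (0.195%) and lower for 150 (1.22%), and control 1 higher for 13 (0.106%) and lower for 36 (0.292%). Of the 415 genes higher in control 3, SKF-96365 2 was above control 3 or less than 2-fold below it for 393, and SKF-96365 3 for 390. Of the 193 lower, these 2 libraries were below control 3 or less than 2-fold above it for 191 and 187. Of the 150 genes lower in control 2, 89 were also at least 2-fold lower there than in each of the 6 treated libraries, against 0 of the 193 lower in control 3.

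**Figure D4:**
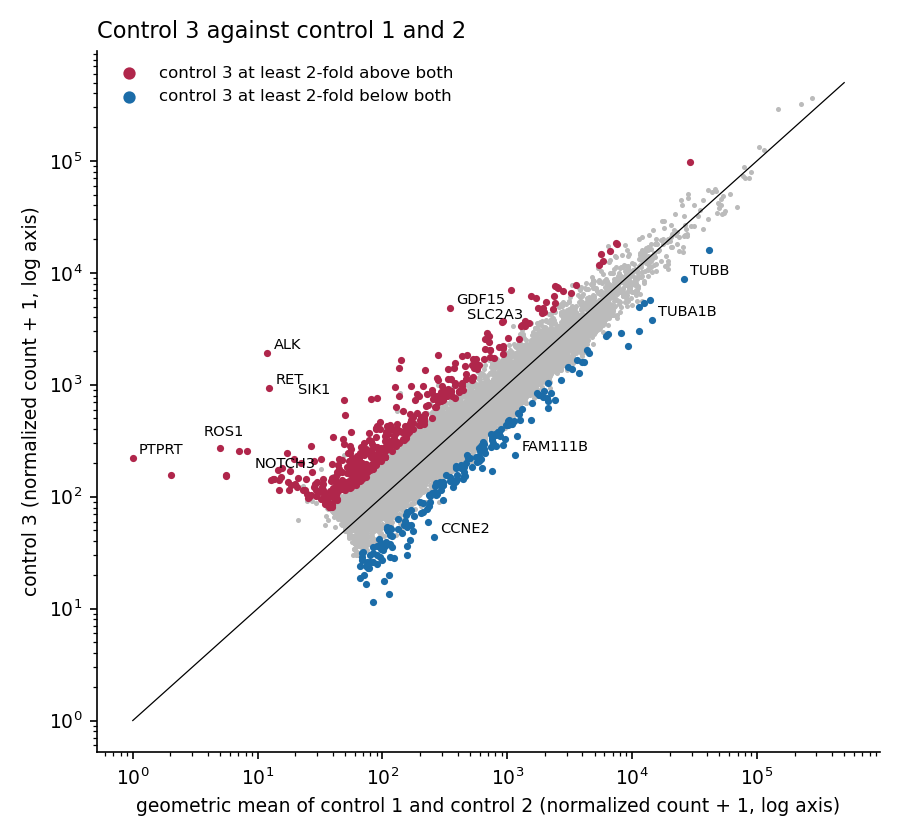
Control 3 (y axis) against the geometric mean of control 1 and control 2 (x axis), both as normalized count plus 1 on log scales, for 12317 genes with a mean of at least 50, with the line of equality. Red points are the 415 genes at least 2-fold above both other controls and blue points the 193 at least 2-fold below, with ALK, RET, ROS1 and PTPRT far to the upper left.

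In control 3, proliferation genes were lower. All 26 listed DNA replication and G1/S genes were lowest there, as were 5695 of all 12317 genes. Of the 26 genes, 14 were at least 2-fold below both others, where 1.57% of all genes were. The median member stood at 0.51, 0.26 and -0.73 in control 1, 2 and 3, as log2 of the value plus 1 minus the gene's mean over the controls, where the median over all 12317 genes was 0.03, 0.02 and -0.04. CCNE2, a cyclin of S phase entry, had 344, 191 and 42.8 normalized counts. The replication licensing factor CDC6 had 2582, 1737 and 615, CDC25A, a phosphatase that switches on cyclin-dependent kinases, had 764, 509 and 179, and the replication factor MCM10 had 1421, 1024 and 349. Control 1 was highest for 25 of the 26, and for 4069 of all 12317 genes. Over control 1 and control 2 alone the median difference of the 26, control 2 minus control 1, was -0.26. Mitosis genes were lowest in control 3 in 23 of 23 cases but none was at least 2-fold below both others, with medians of 0.11, 0.32 and -0.41. Here control 2 was highest for 21, beside 3742 of all 12317 genes. Among them were MKI67, the proliferation antigen, with 9770, 12466 and 5557, and TOP2A, the mitotic topoisomerase, with 17057, 22211 and 11864.

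Tubulins showed the lowest median in control 3, with 0.52, 0.43 and -0.92 over 11 genes, 6 of them at least 2-fold below both others. TUBB4B had 9225, 9242 and 2225 normalized counts, TUBA1B had 14285, 14648 and 3811, and TUBA1C had 10725, 12022 and 3038. Near-identical tubulin copies can share reads, so single members are uncertain, but the named ones were within 2-fold of each other in control 1 and control 2 and lower in control 3. Over control 1 and control 2 alone the median tubulin stood 0.04 higher in control 2. TUBB3, the neuronal form, went the other way, with 66.3, 74.0 and 163. Ribosome biogenesis genes (0.32, 0.15 and -0.49 over 15 genes, 14 lowest in control 3, as were 5695 of all 12317) and cytosolic chaperones (0.27, 0.14 and -0.39 over 12) were lower there too. Over control 1 and control 2 alone, control 2 minus control 1 was a median of -0.19 and -0.12 for these lists. NOP56, a core protein of small nucleolar particles, had 5207, 3845 and 1906, and DNAJA1, a co-chaperone, had 4330, 3905 and 1591.

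Early-response genes were higher in control 3. The median over 20 immediate early genes was -0.17, -0.42 and 0.76, and 8 of these were at least 2-fold above both others there, where 3.37% of all genes were. Over control 1 and control 2 alone the median difference, control 2 minus control 1, was -0.29. JUN, a subunit of the factor AP-1, had 2329, 1579 and 4818 normalized counts, MYC had 2172, 1679 and 4373, and DUSP5, a phosphatase that limits ERK, had 623, 442 and 1510. FOS, the partner of JUN, was not among them, with 29.5, 28.4 and 10.4, and EGR1 was highest in control 1 with 163, 30.4 and 65.7. Clock genes also differed. PER1 had 166, 199 and 723, DBP had 49.5, 37.5 and 190 and NR1D1 had 119, 113 and 415, each at least 2-fold above both others in control 3, with a list median of -0.12, -0.17 and 0.40 over 12 genes, and 0.03 for control 2 minus control 1 over those libraries alone. Of 13 histone genes, 6 were at least 2-fold higher in control 3, such as H2BC21 with 91.5, 69.0 and 744 and H2BC8 with 115, 70.0 and 766. The histone list did not rise as a whole, since 9 of its members were highest and 4 lowest in control 3. Its median was -0.15, -0.20 and 0.35, and -0.11 for control 2 minus control 1 over those libraries alone. The members summed to 25488.5, 22850.5 and 24139.8 normalized counts. Of 14 stress genes, 3 were at least 2-fold higher in control 3, GDF15 and BBC3 (72.6, 82.2 and 367), a cell death effector, among them, whereas MDM2, a ubiquitin ligase of the same list, had 4920, 5178 and 5092.

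Another class of genes was seen in control 3 alone. At 20 or more in control 3 and under 10 in control 1 and control 2 stood 236 genes, 133 of them protein-coding with a symbol, against 22 (0.142%) for control 1 and 18 (0.116%) for control 2 by the same rule. For 91 of the 236 the highest of the 6 treated libraries was also under 10, SKF-96365 2 and SKF-96365 3 included. PTPRT, a receptor phosphatase, had 0, 0 and 220 normalized counts, with at most 2.96 in the treated libraries. TMPRSS2, a serine protease of prostate and airway, had 0, 0 and 112, and SYK, a kinase of blood cells, had 0, 0 and 78.3. Transcription factors listed as markers of other tissues were among them: SOX2 had 0, 1.01 and 75.1, SOX10, of neural crest, 1.05, 6.09 and 57.4, MYOD1, of muscle, 0, 0 and 38.6, NKX2-1, of lung and thyroid, 0, 0 and 28.2, and WT1, of kidney and mesothelium, 0, 0 and 64.7. Some other members of these marker lists were near 0 in control 3, with MYOG at 1.04, TG at 1.04, SFTPC at 1.04, TYR at 0 and NPHS1 at 3.13. Others, such as MSLN, TNNT1 and ERBB3 (values above), were expressed in each control. MAP2, listed with SOX2 as neuronal, had 22.1, 30.4 and 282. Whether the reads of the genes seen in control 3 alone come from RNA of the untreated cells was not tested.

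Among the controls, control 2 was set apart by genes near 0 in it and by inflammatory genes. OR51B5, an olfactory receptor gene, had 266, 8.11 and 236 normalized counts, DCHS1, a giant protocadherin, had 88.4, 5.07 and 124, and ELMOD1 had 86.3, 4.06 and 60.5. In the 6 treated libraries these genes stood at 266 to 374, 97.0 to 135 and 62.9 to 72.4. ADD2, a membrane skeleton protein, had 246, 26.4 and 217, SLC7A2, a cationic amino acid transporter, had 360, 25.4 and 210, and AJAP1, a junction-associated protein, had 1194, 83.2 and 666. Control 2 was thus the low library for each, while control 1 and control 3 were within 2-fold of each other. In the other direction DCDC2, a doublecortin-domain protein of cilia, had 103, 783 and 88.7, BCAT1, a branched-chain aminotransferase, had 45.2, 288 and 44.9, and BMP5 had 507, 1533 and 413. The treated libraries reached at most 96.6, 39.1 and 772 for these.

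Inflammatory genes were also lowest in control 2. Of 17 cytokine, chemokine and NF-kB genes with a mean of at least 50, 12 were lowest there, as were 3295 of all 12317 genes. IL1A, IL1B, CXCL1, CXCL2, CXCL3 and CXCL8, 6 of the 17, were at least 2-fold below both others, where 1.22% of all genes were. IL1B, a fever-inducing cytokine, had 538, 34.5 and 841 normalized counts, CXCL8, a neutrophil attractant, had 686, 113 and 998, and CXCL1 had 1839, 320 and 1057. In the 6 treated libraries IL1B stood at 226 to 1532 and CXCL8 at 125 to 2828. For CXCL8 the lowest treated library was thus close to control 2. SERPINB2, a protease inhibitor of inflamed cells, had 4637, 512 and 3566, and INHBA, an activin subunit, had 122, 18.3 and 326. IL6, LIF (954, 1123 and 1699) and CCL2 (367, 314 and 294) were not 2-fold lower in control 2. The list median was 0.05, -0.46 and 0.64, with control 3 highest, and over control 1 and control 2 alone control 2 stood lower by a median of -0.32. IL24, a cytokine of the IL10 family, had 198, 100 and 1677.

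Promoter sequence shows 1 feature these chemokine genes have in common. The windows below are from RefSeq on GRCh38.p14, read 5′ to 3′ on the gene's strand, with the NF-kB motif in capitals. All 4 genes shown were among the 6 low in control 2 and hold the motif, and each window was cut around it. IL1A and IL1B, also among the 6, do not hold it and are not shown. The motif searched was GGNATTTCC on both strands within 250 bases upstream of the start site, a pattern set for this search from general knowledge of the factor and not taken from a motif table.
CXCL1: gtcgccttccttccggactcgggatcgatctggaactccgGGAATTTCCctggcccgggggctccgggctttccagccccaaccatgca
CXCL2: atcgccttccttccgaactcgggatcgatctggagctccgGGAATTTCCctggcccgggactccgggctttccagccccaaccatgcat
CXCL3: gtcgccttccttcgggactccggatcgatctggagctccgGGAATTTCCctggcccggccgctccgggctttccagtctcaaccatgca
CXCL8: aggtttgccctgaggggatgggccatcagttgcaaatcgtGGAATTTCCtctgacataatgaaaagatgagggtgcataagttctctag
These lie at chr4:73869275-73869363 (plus strand), chr4:74099224-74099312 (minus strand), chr4:74038719-74038807 (minus strand) and chr4:73740438-73740526 (plus strand). The CXCL1 and CXCL3 windows were identical at 82 of 89 bases, whereas CXCL1 and CXCL8 were identical at 29. These bases lie upstream of the start site, so they do not show whether the transcripts share reads, which was not tested. The motif was in 10 of the 19 promoters available for the cytokine, chemokine and NF-kB list, those of TNFAIP3, NFKBIA, NFKB1, BIRC3, ICAM1 and CXCL5 included. It was in 1.22% of all 27305 promoters. The list was chosen to hold NF-kB genes, so the difference between these shares follows from that choice and is not a result. IL1A, IL1B and IL6 did not hold these letters in this window, which says nothing of the factor. Over all genes lower in control 2, 4 of 94 promoters held it, and these were the 4 shown above. Among genes with a mean of at least 50, 103 of 9419 promoters (1.09%) held it. A match is a description of letters and not a site in use.

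Control 1 was marked by low values of interferon and sterol genes. Of 15 interferon-stimulated genes with a mean of at least 50, 13 were lowest in control 1 and 9 highest in control 2, with medians of -0.46, 0.32 and 0.14. Over all 12317 genes, 3327 were lowest in control 1 and 3742 highest in control 2. IFIT3, an antiviral effector, had 1096, 2503 and 1801 normalized counts, IFIT1, of the same family, had 948, 1788 and 1340, and OAS2, a sensor of double-stranded RNA, had 108, 292 and 185. None of the 15 was at least 2-fold lower in control 1 than in both others, as 0.292% of all genes were. Over control 1 and control 2 alone the median member stood 0.78 higher in control 2. RSAD2, the antiviral enzyme viperin, is not in the list and was at least 2-fold lower in control 1, with 21.05, 88.2 and 73.0. IFI44 was at least 2-fold higher in control 2, where 0.195% of all genes were, with 297, 786 and 337. Cholesterol synthesis genes were lowest in control 1 in 16 of 20 cases, with medians of -0.32, 0.25 and 0.06, and stood a median of 0.62 higher in control 2 than in control 1. HMGCS1, which makes the precursor of the pathway, had 1088, 2204 and 2278, and INSIG1, its sterol-sensing brake, had 926, 1869 and 3091. CCL5, a chemokine, had 568, 2186 and 3359 and was the gene furthest below in control 1, and SCD, a fatty acid desaturase, had 4028, 10041 and 17536. Higher in control 1 were SERPINB7, with 715, 114 and 168, CCNE1, with 496, 183 and 181, and CCN2, with 2328, 1075 and 910.

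**Figure D5:**
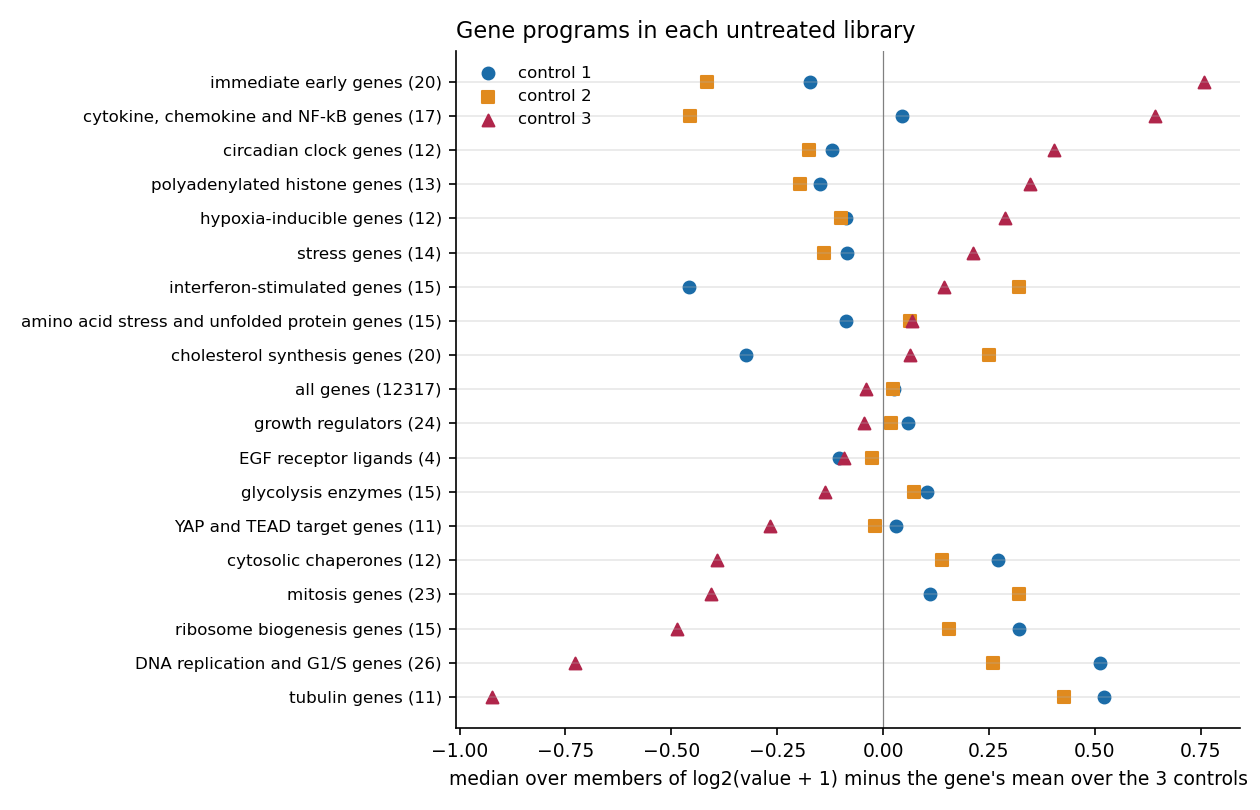
Median over list members of log2(value + 1) minus each gene's mean over the 3 controls (x axis), 1 point per untreated library, for 18 gene programs and all genes, with the number of members with a mean of at least 50 in brackets. Control 3 lies lowest for tubulins (-0.92) and DNA replication (-0.73) and highest for immediate early genes (0.76), control 1 lies lowest for interferon and sterol genes, and control 2 for cytokine genes.

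Glycolysis enzymes were expressed in 15 of 15 cases and none differed 2-fold between controls, as 12.8% of all genes did. ENO1 had 50577, 56366 and 48174 normalized counts, PKM 48186, 48467 and 41939, and LDHA 39604, 42184 and 30371. ALDOA, the muscle aldolase, was listed at 83.1, 76.1 and 73.0, which is low beside the rest of the pathway, and 53.5% of its exonic bases are shared with another annotated gene. Growth regulators had medians of 0.06, 0.02 and -0.05, but 4 of 24 with a mean of at least 50 differed at least 2-fold between controls and 2 were at least 2-fold above both others in control 3. NFE2L2, the oxidant stress factor, had 2382, 2503 and 2600, within 2-fold across controls. CCND1, the G1 cyclin, had 12841, 11090 and 5644, and CDKN1A, the cyclin kinase inhibitor p21, had 3984, 4592 and 8037. The inhibitor genes CDKN2A (12.6, 8.11 and 50.1) and CDKN2B (11.6, 3.04 and 27.1) were at 12.6 or less in control 1 and control 2. Without control 3, and with the mean of at least 50 taken over control 1 and control 2, the genes at least 2-fold apart between controls were 230 in place of 1575.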

How the data were processed

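Total RNA went into a SMARTER mRNA-Seq library kit, per the labels' protocols. The deposited values are a normalized signal: DESeq2 is named in the submitters' processing notes, with no version, and the table's values are gene counts divided by 1 factor per library. Aligner, counter, build, annotation and strand setting are not given in the sources used here. All values of the 3 controls (100%) were whole multiples of the library's smallest value, within 0.001 of a read, so reads were recovered. The table lists 61093 genes, 488 of them unnamed loci with 0.245% to 0.255% of reads. Symbols were found for 60593 genes, exon lengths for 58337 from GENCODE 29.

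Levels, lists and varying genes come from the 3 control columns, and the 6 treated columns serve only as context for these libraries and genes. Expressed means at least 10 normalized counts in each control. A gene varies if 1 control is at least 2-fold above or below both others on the value plus 1, among genes with a mean of at least 50. No test was made. The script was tested on simulated data. The members and the 67 gene lists (1196 symbols, 1 unmatched) were chosen with earlier results of these data known. Genes were named by a rule: TRPV2; the 30 highest by count and 10 highest per length; in each list the 6 highest members, defining markers under 10 and members that crossed 10; the 10 largest folds per library and direction; the 5 steadiest and 5 most variable of high mean; and 4 members per program. Other names were chosen after their values were seen. Alternatives were other thresholds, filters, pseudocounts and scalings, and leaving out each control. Depth limits low genes: 10 normalized counts are about 10 reads. Amplified reads, with no molecular identifiers, do not count separate molecules. Software was Python 3.11.15, numpy 2.4.6, pandas 2.3.3, scipy 1.17.1 and matplotlib 3.10.9.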

Additional observations from a re-analysis of the deposited data

How the results depend on the processing

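Of 172 recomputed values, 140 stayed within range of the reported ones and 32 moved. For counts the range was 1.5-fold either way, and for correlations and medians it was 1 SD over the pairs or controls. Of 2675 values over 535 named genes, 5 moved, all of a gene with no read. A named gene moved if its mean shifted by at least the SD of its 3 controls. Leaving out 1 control cannot shift a mean that far unless the SD is 0, so those values say nothing on stability. A threshold of 1 normalized count gave 22687 expressed genes and 238 identity genes in place of 15062 and 155. Ranking per length kept 19 of 30 genes. In the order control 1 higher, control 1 lower, control 2 higher, control 2 lower, control 3 higher and control 3 lower, a threshold of 1.5-fold gave 122, 216, 136, 369, 1122 and 1035 varying genes, and 4-fold gave 1, 0, 3, 32, 52 and 7. No filter on low values gave 2652, 2008, 2464, 2439, 4676 and 2206, and a mean of at least 200 gave 4, 14, 9, 41, 167 and 119. Genes 2-fold apart numbered 17892 with no filter, and 230 to 1152 with each control left out in turn, the lowest without control 3, where the mean of at least 50 was taken over the remaining libraries. Medians near 0 changed sign in 7 cases. For EGF receptor ligands, 4 genes, the control 3 median was -0.040 with upper-quartile rescaling, and control 2 minus control 1 was -0.0018 over those libraries alone in place of 0.08, a choice added after seeing the data. With the same choice it was 0.04 in place of -0.09 for tubulins, 0.08 in place of -0.05 for stress genes, 0.04 in place of -0.01 for hypoxia genes, 0.03 in place of -0.05 for clock genes and 0.03 in place of -0.05 for YAP and TEAD targets. The growth regulator median in control 3 was 0.0081 in place of -0.05 with upper-quartile rescaling. The cause was not tested. No paired analysis was possible because the results come from no test and a single group is described. Values near 10 rest on about 10 reads, and levels of up to 3 reads cannot be told from 0.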
